A study of Rattus norvegicus with 19 samples.

Results

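The miR-379 to miR-410 cluster is a long run of microRNA (miRNA) hairpins inside the imprinted Dlk1-Dio3 region, and its mature miRNAs were measured here in rat plasma. Members were the mature miRNAs of the deposited table named after 31 of its hairpins, chosen by name and not by level, with several neighbours of the same run left out. Earlier results of these data were known when this choice was made. This gave 58 members of the 748 miRNAs counted. The blood came from the tail vein of adult Sprague-Dawley rats, male by the study's methods, 2 days after the operation where there was one. Small RNA was sequenced from plasma, with 1 library per animal. The groups were 5 rats with severe traumatic brain injury (sTBI), 5 with mild injury (mTBI), 5 sham-operated controls and 4 naive rats. Injury was made by lateral fluid percussion, a pressure pulse to the intact dura, at a higher pressure in sTBI. The sTBI, mTBI and sham groups shared the craniectomy and its anesthesia, so a difference between any of them and naive rats includes the surgery. Plasma collects RNA from many tissues, and a level in it does not give the tissue of origin.

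A miRNA hairpin is cut into a duplex whose arms, 5p and 3p, can each be loaded into an Argonaute protein, and bases 2 to 8 of the loaded arm, the seed, pair with target transcripts. The Dlk1-Dio3 region is expressed from 1 parental allele, and its noncoding RNAs, these miRNAs among them, come from the maternal chromosome. The cluster is well expressed in brain. In rat neurons its transcription follows neuronal activity through the factor Mef2, and miR-329 and miR-381 are among the members known to act in activity-dependent growth of dendrites.

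RefSeq gave a sequence for 57 of the 58 members, all but miR-679, from 30 hairpins. They lay at chr6:134543460-134579828 of build GRCr8, a stretch of 36369 bases, with 55 of them on the plus strand and 2, miR-299b-5p and miR-409b, on the minus strand. The 8 members that differed between groups are printed 5′ to 3′ from the miR-379 end to the miR-410 end, since the results turn on them, with the seed in capitals. Their 8 seeds all differed from each other.
miR-379-5p: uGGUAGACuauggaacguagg
miR-379-3p: cUAUGUAAcaugguccacuaac
miR-667-3p: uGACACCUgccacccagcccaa
miR-300-3p: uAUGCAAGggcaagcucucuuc
miR-487b-3p: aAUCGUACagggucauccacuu
miR-154-5p: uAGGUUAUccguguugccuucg
miR-409b: aGGGGUUCaccgagcaacauucg
miR-369-5p: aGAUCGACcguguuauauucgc

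The next sequences are shown because their reads could be shared with those of a called member. The first of them lies on the opposite strand from miR-409b, and its 20 bases were the reverse complement of part of miR-409b with 0 mismatches. The second matched miR-300-3p over 18 bases with 1 mismatch.
miR-409a-3p: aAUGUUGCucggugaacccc
miR-381-3p: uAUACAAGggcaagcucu
In the same way miR-379-3p and miR-411-3p matched over 20 bases with 1 mismatch, and miR-369-5p was the reverse complement of miR-3578, which is not a member, over 22 bases with 0 mismatches. The last mapping step of the study tolerated up to 2 mismatches and the counting strand is not given in the sources used here, so the values of miR-409b, miR-300-3p, miR-379-3p and miR-369-5p are uncertain by whatever reads such pairs exchanged. Of the other called members, miR-154-5p matched miR-494-5p over 20 bases with 2 mismatches, leaving out the ends, so its value is uncertain in the same way. For miR-379-5p, miR-667-3p and miR-487b-3p no such partner was found among the miRNAs with a sequence. That search scored whole overlaps only and did not compare rows that merge several miRNAs.

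Levels are given as CPM, the share of a library's miRNA molecules scaled to a common total with TMM library factors, where molecules were counted by unique molecular index (UMI). Values of single libraries are given in the order of the labels' replicate numbers. Libraries held 16241433 to 21517763 reads and 2409545 to 5866757 miRNA UMIs. The miRNA to spike-in ratio, in UMIs, was 5.61 to 7.38 after sTBI, 7.20 to 16.8 after mTBI, 5.53 to 9.37 in sham-operated controls and 6.64 to 15.0 in naive rats. The 4 highest ratios, 16.8 in mTBI library 2, 15.0 in naive library 3, 12.7 in naive library 1 and 12.6 in mTBI library 5, stood apart from the rest. Their TMM factors, 0.792, 0.692, 0.790 and 0.680 in the same order, were the lowest of all libraries, and a low factor raises CPM. These libraries take in 2 of the 4 naive libraries, so results are also given without these 4. Counts of 1 to 9 did not occur at all in 7 of the 19 libraries, where the smallest value above 0 was 10, so a member listed at 0 there may have had a few molecules. Brain markers (miR-9a-5p, miR-9a-3p, miR-124-3p and miR-129-5p) summed to 260 to 441 CPM after sTBI, 91.8 to 164 after mTBI, 44.7 to 113 in sham-operated controls and 35.9 to 50.7 in naive rats, and none was at 0 in all libraries of a group. Striated muscle markers (miR-1-3p, miR-133a-3p, miR-206-3p) summed to 1378 to 2402 CPM after sTBI, 2640 to 5955 after mTBI, 2178 to 8596 in sham-operated controls and 439 to 1218 in naive rats. Erythrocyte, leukocyte and platelet, and liver markers had 0 calls in each of the 6 comparisons.

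The cluster was a minor part of plasma miRNA, and 2 of its arms held a large share of it. Members summed to 2561 to 4699 UMIs per library, and 43 to 55 of the 58 were above 0. miR-379-3p averaged 354 ± 155 CPM (SD, n = 19 libraries) and miR-411-5p, from the neighbouring hairpin, 140.2 ± 39.6 CPM. Together these 2 arms held 38.6 to 77.6% of the members' UMIs in a library. The next members by mean were miR-543-5p at 44.4 ± 9.74 CPM, miR-379-5p at 23.7 ± 6.10 CPM and miR-329-3p at 19.7 ± 3.74 CPM. CPM does not correct for how well each sequence is captured, so the order is that of the libraries. In all, 19 members averaged 10 CPM or more and 25 averaged under 5 CPM. The filter on low counts was passed by 52 members, which are those tested. miR-154-3p, miR-299a-3p, miR-299b-5p, miR-380-5p, miR-496-5p and miR-544-5p did not pass it. Of those that did, miR-543-3p and miR-377-3p were listed at 0 in most libraries.

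**Figure D1:**
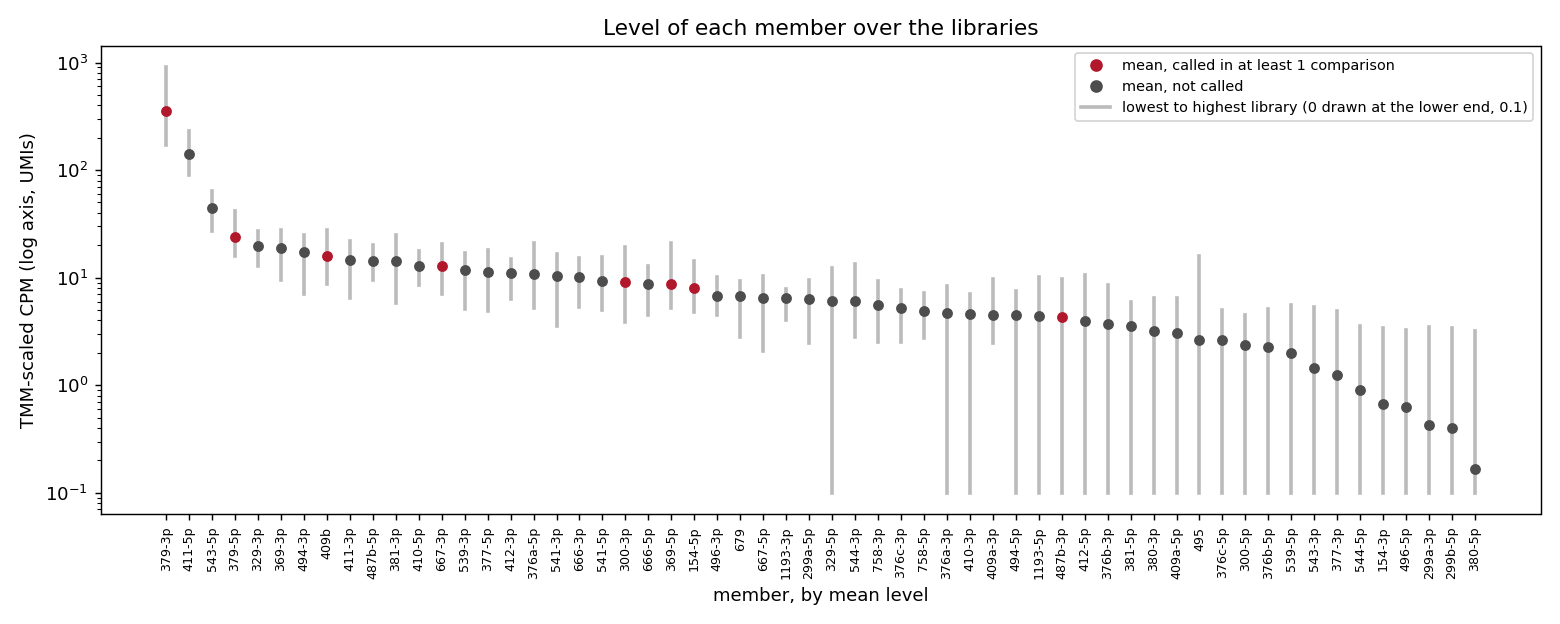
Mean TMM-scaled CPM of each of the 58 members over 19 libraries (points, log axis), with lines from the lowest to the highest library and values of 0 drawn at 0.1. miR-379-3p (354 CPM) and miR-411-5p (140.2 CPM) stand above the other members.

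Summed over all members, the level was 886.7 to 1008 CPM after sTBI, 805.7 to 994.6 CPM after mTBI, 783.9 to 911.3 CPM in sham-operated controls and 881.3 to 1444 CPM in naive rats, so the sTBI and naive libraries overlapped. The sTBI mean, 945.5 CPM, was the lower one, against 1061 CPM in naive rats. Without miR-379-3p and miR-411-5p, the top 2 arms, which had lower means after sTBI than in naive rats, members summed to 457 to 540 CPM after sTBI, 360 to 475 CPM after mTBI, 444 to 491 CPM in sham-operated controls and 323.4 to 434.2 CPM in naive rats. In TMM-scaled CPM the sTBI and naive libraries did not overlap in this second sum, where sTBI was higher. Without TMM factors they overlapped. The second sum was 1429 of 3232696 miRNA UMIs in sTBI library 5 and 1297 of 2908509, a slightly larger share, in naive library 2. Set against spike-in UMIs it was 1429 to 462412 in sTBI library 5 and 1387 to 395421, the larger ratio, in naive library 1. Between sTBI and naive rats 7 of 52 members were called higher and 0 lower (edgeR, adjusted p under 0.05). That is 13.5% of members called higher, where over all 713 miRNAs tested 4.35% were called higher and 0.561% lower. The members called were miR-409b, miR-154-5p, miR-667-3p, miR-300-3p, miR-369-5p, miR-487b-3p and miR-379-5p. The median log2 fold change was 0.403 over the members and 0.0277 over all miRNAs, with 42 of 52 members (80.8%) and 53.3% of all miRNAs above 0. The members' median was 0.187 with spike-in totals and 0.703 with total counts as library sizes, when that of all miRNAs was -0.196 and 0.362. Of the markers, 3 of 4 brain and 1 of 3 striated muscle miRNAs were called here too, with sums that did not overlap between the groups, and their part in the members' result was not tested. Without the 4 libraries of highest ratio, which leaves 2 naive libraries, 0 members were called and their median was 0.175. Of all miRNAs, 35 of 713 were called with all libraries and 11 of 730, with a median of 0.0208, without these 4. The log2 fold changes there were 1.08 for miR-300-3p, 1.21 for miR-369-5p, 2.30 for miR-487b-3p, 0.69 for miR-154-5p, 0.75 for miR-667-3p, 0.75 for miR-409b and 0.61 for miR-379-5p. With spike-in totals as library sizes only miR-409b was called of the members, and 15 of 711 of all miRNAs.

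miR-409b, which is read from the strand opposite to miR-409a, had the smallest adjusted p of all members. It was at 20.2, 28.0, 22.7, 23.1 and 23.4 CPM after sTBI, 9.95, 8.68, 9.62, 13.0 and 12.5 CPM after mTBI, 20.5, 15.2, 15.4, 15.0 and 18.5 CPM in sham-operated controls, and 9.79, 16.1, 10.3 and 10.9 CPM in naive rats. All sTBI libraries were above all naive and all mTBI libraries, and of the sham-operated controls 1 lay inside the sTBI range and 4 below it. The log2 fold change of sTBI to naive rats was 1.00 (SE 0.19, adjusted p = 0.00132), and that of sTBI to mTBI was 1.12 (SE 0.17, adjusted p = 0.000155). It passed with any single library of the groups compared left out, with adjusted p of up to 0.0128 in the 9 fits of sTBI and naive rats and 0.00155 in the 10 fits of sTBI and mTBI. Without the 4 libraries of highest ratio the values were 0.75 (adjusted p = 0.136) to naive rats and 1.09 (adjusted p = 0.00209) to mTBI. The opposite miR-409a-3p, printed above, was at 4.24 to 9.69 CPM after sTBI, 2.76 to 4.01 CPM after mTBI, 3.45 to 4.98 CPM in sham-operated controls and 2.47 to 5.25 CPM in naive rats. It was above all mTBI libraries in all 5 sTBI libraries but did not pass the test, at 0.79 on the log2 scale (SE 0.29, adjusted p = 0.193). The ratio of miR-409b to miR-409a-3p counts was 2.38 to 5.35 after sTBI, 2.23 to 4.55 after mTBI, 3.39 to 4.86 in sham-operated controls and 2.60 to 4.14 in naive rats, and these ranges overlap.

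miR-154-5p, from the far part of the cluster, was at 11.6, 14.4, 12.2, 8.26 and 10.6 CPM after sTBI, 6.57, 6.28, 6.41, 5.95 and 5.76 CPM after mTBI, 9.37, 6.72, 8.76, 9.68 and 6.40 CPM in sham-operated controls, and 4.77, 5.56, 6.36 and 8.18 CPM in naive rats. The sTBI libraries were above all mTBI and naive libraries, though sTBI library 4 was only just above naive library 4, and they overlapped the sham-operated controls. Its log2 fold change was 0.89 (SE 0.20, adjusted p = 0.0109) to naive rats and 0.88 (SE 0.18, adjusted p = 0.00563) to mTBI. Without naive library 1 the first was 0.74 (adjusted p = 0.0984). Its other arm, miR-154-3p, was above 0 in 5 of 19 libraries and was not tested.

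miR-667-3p had the most even sTBI values of the called members, 19.4, 20.4, 18.2, 18.5 and 17.0 CPM, against 9.36, 7.48, 13.6, 15.3 and 7.52 CPM after mTBI, 9.37, 9.95, 9.56, 12.5 and 15.3 CPM in sham-operated controls, and 7.03, 12.4, 10.3 and 9.20 CPM in naive rats. In TMM-scaled CPM the sTBI libraries overlapped none of the other 3 groups. Without TMM factors they overlapped sham, at 53 of 3232696 miRNA UMIs in sTBI library 5 and 43 of 2409545, a larger share, in sham library 5. The log2 fold change was 0.95 (SE 0.22, adjusted p = 0.0135) to naive rats and 0.82 (SE 0.20, adjusted p = 0.0245) to mTBI, and to sham-operated controls it was 0.73 (SE 0.20, adjusted p = 0.0725), short of the threshold. It passed against sham with read counts, in the fit of 2 groups and with DESeq2. Leaving out sham library 5 or the 4 libraries of highest ratio also gave this call. The call to naive rats was lost without naive library 1 (adjusted p = 0.115) and without naive library 3 (0.0550). The call to mTBI was lost without sTBI library 1, 2 or 5 (adjusted p 0.0558, 0.0588 and 0.0510) and without mTBI library 1, 2 or 5 (0.0777, 0.0794 and 0.0971), and with total counts (0.0547). The opposite arm miR-667-5p averaged 7.43 ± 2.32 CPM after sTBI (SD, n = 5) and its difference from naive rats on the log2 scale was 0.18 (SE 0.33, adjusted p = 0.781).

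miR-300-3p was the one member called in 3 comparisons. It was at 10.3, 17.3, 14.2, 19.4 and 9.60 CPM after sTBI, 5.97, 8.38, 7.21, 7.93 and 10.3 CPM after mTBI, 8.76, 10.2, 6.37, 7.19 and 3.91 CPM in sham-operated controls, and 8.03, 6.49, 6.01 and 6.48 CPM in naive rats. The sTBI libraries were spread over a 2-fold range, all of them above the naive libraries, while their lowest values overlapped mTBI and sham. Its log2 fold change was 1.06 (SE 0.25, adjusted p = 0.0154) to naive rats, 0.84 (SE 0.23, adjusted p = 0.0454) to mTBI and 0.94 (SE 0.23, adjusted p = 0.0338) to sham-operated controls. The call to naive rats was lost without sTBI library 2 (adjusted p = 0.0526), sTBI library 4 (0.0559) or naive library 3 (0.0696). That to mTBI was lost without sTBI library 2, 3 or 4 (0.138, 0.0747 and 0.159) or mTBI library 1, 2, 3 or 4 (0.0894, 0.0794, 0.0828 and 0.0800), and with the replicate block (0.0782). It was also lost with read counts (0.186), RLE factors (0.0638), spike-in totals (0.242), the fit of 2 groups (0.0568), counts under 10 set to 0 (0.0529) and without the 4 libraries of highest ratio (0.0786). That to sham was lost with read counts (0.0505), spike-in totals (0.414) and the fit of 2 groups (0.0954), and without sTBI library 2, 3 or 4 (0.103, 0.0599 and 0.130) or sham library 3, 4 or 5 (0.124, 0.0700 and 0.0910). The near-identical miR-381-3p averaged 14.8 ± 3.32 CPM after sTBI and was not called in any comparison, its log2 fold change between sTBI and naive rats being 0.58 (SE 0.31, adjusted p = 0.255). The other arm miR-300-5p averaged 2.39 CPM over all libraries and was not called.

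miR-369-5p was at 8.36, 12.0, 20.97, 9.40 and 15.0 CPM after sTBI, 6.97, 8.98, 10.4, 6.51 and 5.76 CPM after mTBI, 9.67, 5.97, 7.44, 5.31 and 7.82 CPM in sham-operated controls, and 6.78, 5.25, 6.72 and 5.79 CPM in naive rats. All sTBI libraries were above the naive ones, with library 3 highest, and the 2 lowest sTBI libraries lay inside the mTBI and sham ranges. Its log2 fold change to naive rats was 1.10 (SE 0.26, adjusted p = 0.0154). The call was lost without sTBI library 3 (adjusted p = 0.0529), naive library 1 (0.0781) or naive library 3 (0.0696), and with read counts (0.0518). miR-369-3p, which with miR-496 and miR-543 is known to act on N-cadherin in mouse cortex, was the more abundant arm at 22.1 ± 4.03 CPM after sTBI, 16.1 ± 6.64 CPM after mTBI and 18.8 CPM over all libraries. Its difference from naive rats after sTBI was 0.61 (log2, SE 0.24, adjusted p = 0.147). The opposite-strand miR-3578 had 12 to 25 UMIs after sTBI, 0 to 20 after mTBI, 10 to 17 in sham-operated controls and 0 to 6 in naive rats. miR-369-5p had 31 to 84 UMIs after sTBI, 23 to 39 after mTBI, 17 to 32 in sham-operated controls and 17 to 27 in naive rats, and in sham library 4 both had 17.

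miR-487b-3p had the largest fold among the called members and the lowest counts. It was at 4.32, 9.68, 6.49, 6.27 and 3.20 CPM after sTBI, 3.58, 2.99, 4.01, 5.38 and 3.51 CPM after mTBI, 5.14, 5.22, 3.72, 5.62 and 5.33 CPM in sham-operated controls, and 2.51, 0, 2.47 and 2.39 CPM in naive rats. In TMM-scaled CPM all libraries of the 3 operated groups were above all naive libraries. Without TMM factors they overlapped, at 10 of 4221068 miRNA UMIs in mTBI library 2 and 7 of 2894711, a larger share, in naive library 4. The fitted log2 fold change of sTBI to naive rats was 1.69 (SE 0.48, adjusted p = 0.0464), and those of mTBI and sham were 1.06 (SE 0.49, adjusted p = 0.589) and 1.42 (SE 0.49, adjusted p = 0.129). The value was 3.01 with counts under 10 set to 0 and 2.30 (adjusted p = 0.144) without the 4 libraries of highest ratio, and the 0 is in naive library 2, which has no miRNA at a count of 1 to 9. The call rests on 10 to 37 UMIs per sTBI library and 0 to 10 per naive library, and was lost without sTBI library 2, 3 or 4 (0.143, 0.0888 and 0.0812), naive library 1 (0.0909) or naive library 3 (0.101), and with the replicate block (0.0759). It was also lost with read counts (0.105), RLE factors (0.0505), spike-in totals (0.140) and the fit of 2 groups (0.121). miR-487b-5p, the more abundant arm at 15.7 ± 1.89 CPM after sTBI and 14.3 CPM over all libraries, differed from naive rats by 0.19 (log2, SE 0.21, adjusted p = 0.628) and was not called.

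**Figure D2:**
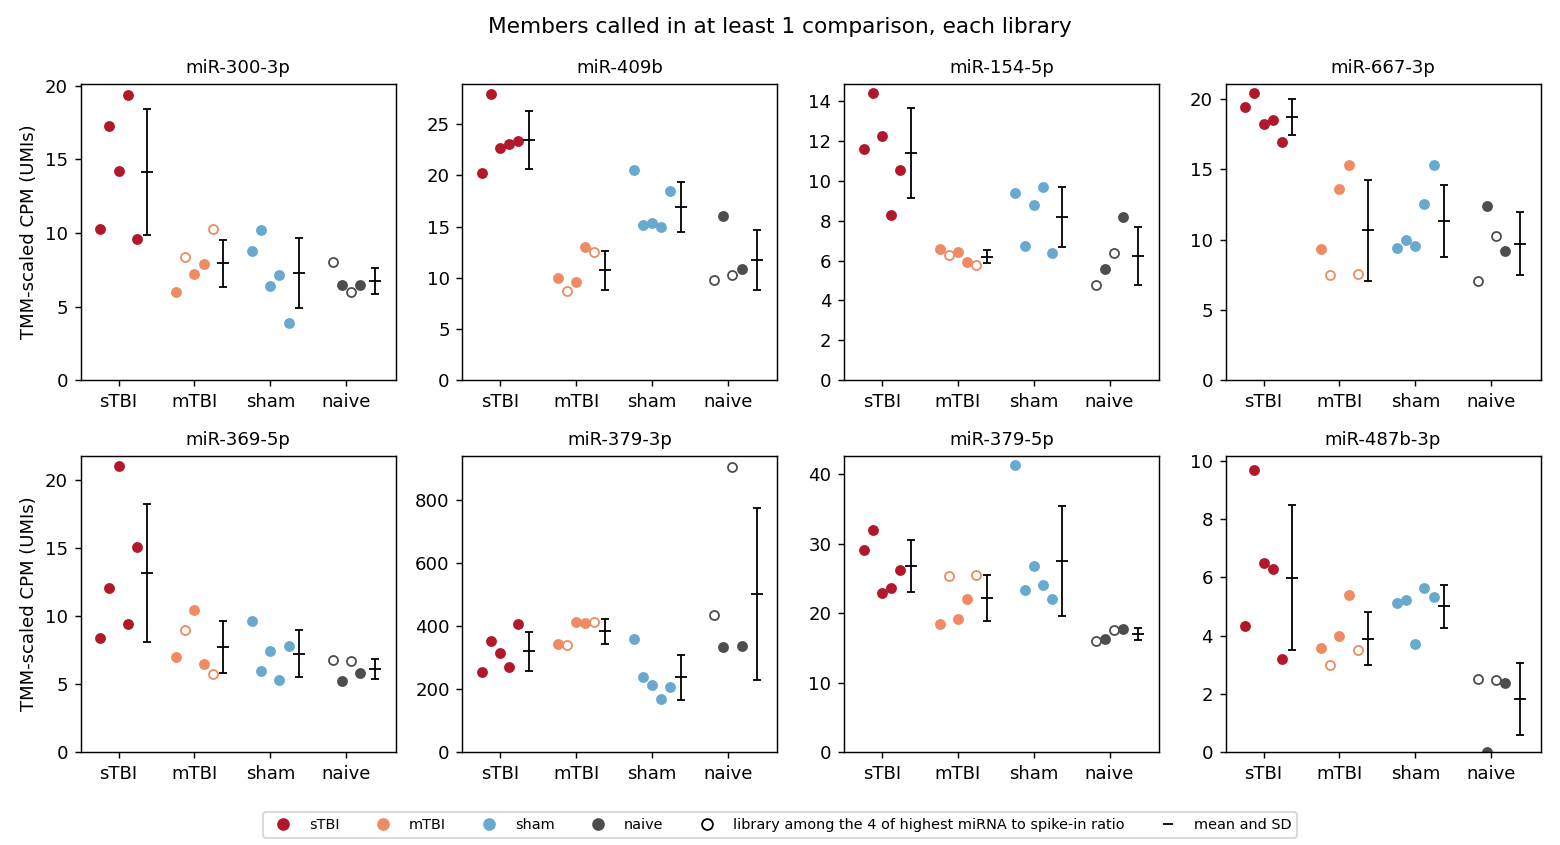
TMM-scaled CPM of the 8 members called in at least 1 comparison, 1 point per library, by group from sTBI to naive, with the mean and SD of each group. Open points are the 4 libraries of highest miRNA to spike-in ratio. For miR-409b and miR-667-3p all sTBI libraries lie above all mTBI and naive libraries.

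The arms of miR-379, the first hairpin of the cluster, had log2 fold changes of opposite sign against naive rats. miR-379-5p was at 29.1, 31.9, 23.0, 23.7 and 26.2 CPM after sTBI, 18.5, 25.4, 19.2, 22.1 and 25.6 CPM after mTBI, 41.4, 23.4, 26.8, 24.1 and 22.0 CPM in sham-operated controls, and 16.1, 16.4, 17.7 and 17.7 CPM in naive rats. In TMM-scaled CPM every library of the 3 operated groups was above every naive library. Without TMM factors they overlapped, at 102 of 5866757 miRNA UMIs in mTBI library 5 and 53 of 2908509, a larger share, in naive library 2. The log2 fold change to naive rats was 0.66 after sTBI (SE 0.19, adjusted p = 0.0464), which passed, and 0.38 after mTBI (SE 0.19, adjusted p = 0.709) and 0.70 in sham-operated controls (SE 0.19, adjusted p = 0.0536), which did not. The sTBI call was lost with the replicate block (adjusted p = 0.0896), with RLE factors (0.0619) and on leaving out any of its libraries but sTBI library 3, at adjusted p 0.103, 0.125, 0.0622 and 0.0821 without sTBI library 1, 2, 4 or 5 and 0.198, 0.0744, 0.157 and 0.0546 without naive library 1, 2, 3 or 4.

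miR-379-3p, the dominant arm, was at 254, 355, 315, 272 and 408 CPM after sTBI, 343.6, 340.5, 414.3, 409.3 and 413.5 CPM after mTBI, 359, 238, 213, 170.2 and 209 CPM in sham-operated controls, and 436, 334, 904.6 and 336.7 CPM in naive rats. Naive library 3 was far above all other libraries, and 4 of 5 sham libraries were below every naive library. Between sham-operated controls and naive rats 0 of 52 members were called higher and 1 lower, where 2.10% of all miRNAs were called higher and 0.281% lower, and this member was miR-379-3p. Other settings gave other directions, with 2 higher and 0 lower with total counts (miR-379-5p and miR-541-5p), 3 higher and 1 lower with DESeq2, 2 higher and 1 lower with counts under 10 set to 0, and 1 higher and 0 lower without sham library 5 (miR-379-5p). With naive library 2 or naive library 4 left out it was 1 higher and 1 lower. Calls over all miRNAs were 17 of 713 in the main fit, 20 of 713 with total counts and 44 of 574 with DESeq2. They were 23 of 713 with counts under 10 set to 0, 13 of 713 without sham library 5, 35 of 723 without naive library 2 and 41 of 722 without naive library 4. For miR-379-3p the log2 fold change was -1.08 (SE 0.27, adjusted p = 0.0351). In this comparison all 3 striated muscle markers and 0 of the 4 brain markers were called, and their part in this value was not tested. Without naive library 3 the log2 fold change was -0.66 (adjusted p = 0.300), and the call was also lost without sham library 2, 3, 4 or 5 (0.0619, 0.101, 0.0771 and 0.0702) and with the replicate block (0.0702). Its adjusted p was 0.102 for spike-in totals, 0.0834 for total counts and 0.172 when the 2 groups were fitted alone. Without the 4 libraries of highest ratio it was 0.744. After sTBI the log2 fold change to naive rats was -0.65 (SE 0.27, adjusted p = 0.158).

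The ratio of miR-379-3p to miR-379-5p within a library was 8.71 to 15.5 after sTBI, 13.4 to 21.5 after mTBI, 7.08 to 10.2 in sham-operated controls and 19.0 to 51.2 in naive rats. The naive ratios were all above those of sTBI and sham and overlapped those of mTBI. Being within a library, this ratio does not depend on the library factors. The naive group had 2 of the 4 libraries of highest miRNA to spike-in ratio, naive libraries 1 and 3, with arm ratios of 27.1 and 51.2. The other naive libraries, 2 and 4, were at 20.4 and 19.0, also above all sTBI and sham libraries. mTBI libraries 2 and 5, also among the 4, were at 13.4 and 16.2, the lowest of mTBI. The part of these 4 libraries in the arm ratio was not tested. miR-411, the second hairpin, did not pass edgeR's test in any comparison in either arm, while DESeq2 called miR-411-5p lower between sTBI and naive rats. miR-411-5p was at 118, 95.8, 100.1, 130.2 and 143 CPM after sTBI, 117, 105, 169, 120 and 130.1 CPM after mTBI, 90.6, 129, 117, 139 and 231 CPM in sham-operated controls, and 179, 147, 216 and 186 CPM in naive rats. In TMM-scaled CPM all sTBI libraries were below all naive libraries, at -0.63 on the log2 scale (SE 0.23, adjusted p = 0.122). Without TMM factors they overlapped, at 457 of 2968683 miRNA UMIs in sTBI library 4 and 714 of 5041094, a smaller share, in naive library 1. The 5p to 3p ratio of miR-411 was 4.58 to 9.49 after sTBI, 4.76 to 26.4 after mTBI, 5.26 to 17.6 in sham-operated controls and 9.15 to 25.5 in naive rats.

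**Figure D3:**
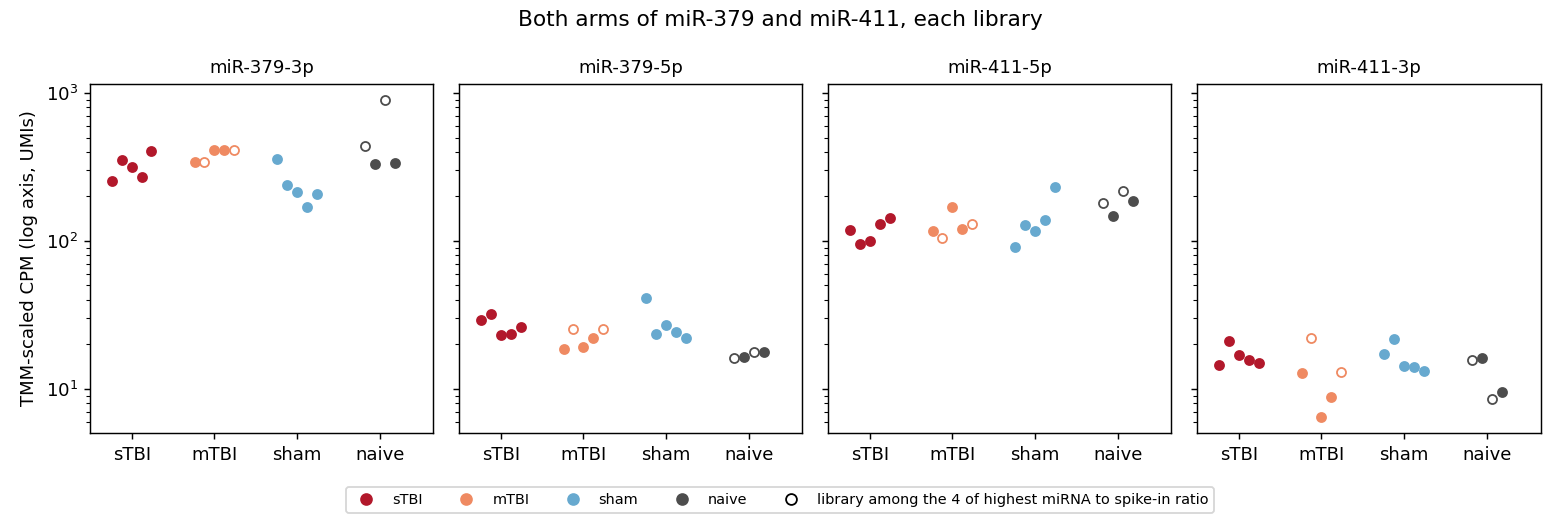
TMM-scaled CPM (log axis) of both arms of miR-379 and miR-411, 1 point per library, by group from sTBI to naive. Open points are the 4 libraries of highest miRNA to spike-in ratio. The miR-379-5p naive libraries (16.1 to 17.7 CPM) lie below all others, while miR-379-3p is highest in naive library 3 (905 CPM).

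The remaining members of the highest 5 by mean level did not pass the test. miR-543-5p averaged 50.1 ± 8.24 CPM after sTBI, 39.8 ± 9.57 CPM after mTBI, 47.9 ± 7.38 CPM in sham-operated controls (SD, n = 5 each) and 38.5 ± 11.2 CPM in naive rats (SD, n = 4). miR-329-3p averaged 21.5 ± 3.44 CPM after sTBI, 18.6 ± 3.79 CPM after mTBI, 19.1 ± 3.44 CPM in sham-operated controls (SD, n = 5 each) and 19.8 ± 5.01 CPM in naive rats (SD, n = 4). The groups overlapped for both, and neither was called in any of the 6 comparisons.

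Between sTBI and mTBI, which share the craniectomy and differ in the force of the impact and, by the study's methods, in feeding after it, 4 of 52 members were called higher and 0 lower. This is 7.69% of members, where over all miRNAs 2.95% were called higher and 0.281% lower. They were miR-409b, miR-154-5p, miR-667-3p and miR-300-3p, which are also among the 7 called between sTBI and naive rats, comparisons that share the sTBI libraries. The median log2 fold change was 0.286 over the members and 0.0351 over all miRNAs. miR-369-5p, with 0.77 (SE 0.24, adjusted p = 0.0828), fell short of the threshold. Of the markers, 3 of 4 brain and 1 of 3 striated muscle miRNAs were called in this comparison as well, the brain sum being higher and the muscle sum lower after sTBI without overlap, and their part in the members' result was not tested. Without the 4 libraries of highest ratio, which leaves 3 mTBI libraries, miR-409b alone was called of the members, as it was with spike-in totals, when the members' median was 0.0059. Of all miRNAs, 23 of 713 were called in the main fit, 10 of 730 without these 4 libraries and 14 of 711 with spike-in totals. Only 2 members, miR-154-5p and miR-409b, were called without sTBI library 2, mTBI library 1 or mTBI library 2, when 16 of 711, 17 of 708 and 17 of 713 of all miRNAs were.

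Between sTBI and sham-operated controls, which share the craniectomy and differ in the impact and, by the study's methods, in feeding and fluids after it, 1 of 52 members was called higher, miR-300-3p, and 0 lower. This is 1.92% of members, near the 1.82% of all miRNAs called higher, with 0.281% called lower. The count was 0 without sTBI library 2, 3 or 4 or sham library 3 or 4, and 2 without sTBI library 1, when miR-369-5p was called as well. Of all miRNAs, 15 were called in the main fit and 9 to 15 in these refits. Here too 3 of the 4 brain markers were called, and their part in this call was not tested. The median log2 fold change was 0.114 over the members and -0.0067 over all miRNAs, and with spike-in totals, when 0 members and 14 of 711 miRNAs in all were called, it was -0.0284 over the members and -0.157 over all. Of the other members called between sTBI and naive rats, miR-369-5p was at 0.87 here (SE 0.24, adjusted p = 0.0712), miR-409b at 0.47 (SE 0.17, adjusted p = 0.235) and miR-154-5p at 0.48 (SE 0.18, adjusted p = 0.284). miR-667-3p was the only member called with read counts (11 of 727 miRNAs in all), in the fit of 2 groups (16 of 691) and without sham library 5 (14 of 713). It was called beside miR-300-3p with DESeq2 (23 of 646), as was miR-369-5p, and without the 4 libraries of highest ratio (18 of 730).

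Against naive rats or sham-operated controls, edgeR's fit of all libraries called no member after mTBI. Between mTBI and naive rats 0 of 52 members were called in either direction by edgeR, with 3 higher and 1 lower at an unadjusted p under 0.05 (7.69% of members and 7.15% of all miRNAs), and DESeq2 called 1, miR-494-3p, higher. Over all miRNAs 2.38% were called higher and 0% lower. miR-494-3p was at 16.1 to 25.1 CPM after mTBI and 7.07 to 14.8 CPM in naive rats, without overlap, and its edgeR log2 fold change was 0.71 (SE 0.22, adjusted p = 0.154). Without TMM factors these groups overlapped, at 74 of 5866757 miRNA UMIs in mTBI library 5 and 47 of 2908509, a larger share, in naive library 2. Between mTBI and sham-operated controls 0 of 52 members were called by edgeR, with 2 higher and 4 lower at an unadjusted p under 0.05 (11.5% of members and 11.4% of all miRNAs). DESeq2 and the edgeR fit of the 2 groups alone each called 1, miR-377-5p, lower. Over all miRNAs 0.140% were called higher and 0% lower. miR-377-5p was at 7.48 to 10.3 CPM after mTBI and 13.7 to 18.1 CPM in sham-operated controls, without overlap, at -0.86 on the log2 scale in edgeR (SE 0.21, adjusted p = 0.135). miR-494-3p and miR-377-5p were picked for these calls after their values were seen. The median log2 fold change over the members was -0.0126 for mTBI to naive rats, where all miRNAs had -0.0550, and -0.219 for mTBI to sham-operated controls, where all miRNAs had 0.0180. Between mTBI and sham 14 of 52 members (26.9%) and 51.5% of all miRNAs were above 0.

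The called members were not neighbours in 1 stretch of the cluster. miR-379-5p is at its start, miR-667-3p and miR-300-3p are in its middle part, and miR-487b-3p, miR-154-5p, miR-409b and miR-369-5p follow towards the miR-410 end. In between lay members with log2 fold changes near 0, and the whole range between sTBI and naive rats was -1.64 to 1.69. For 5 hairpins with both arms among the members, miR-154, miR-300, miR-369, miR-487b and miR-667, 1 arm was called higher and the other was not tested or not called. The 57 sequences had 52 distinct seeds, of which 4 were shared by 2 or more members, 9 members in all. None of the 8 called members shared a seed with another member. Across the 19 libraries, Pearson correlations of log2(CPM + 1) among the 7 members called higher were 0.247 to 0.757 over 21 pairs, with a median of 0.536. As deviations from the group means they were -0.382 to 0.430 with a median of 0.0398. These are descriptions over libraries that share the groups and library factors. The 7 members were picked for being higher in the same sTBI libraries, so positive correlations across the 19 libraries follow from that choice.

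**Figure D4:**
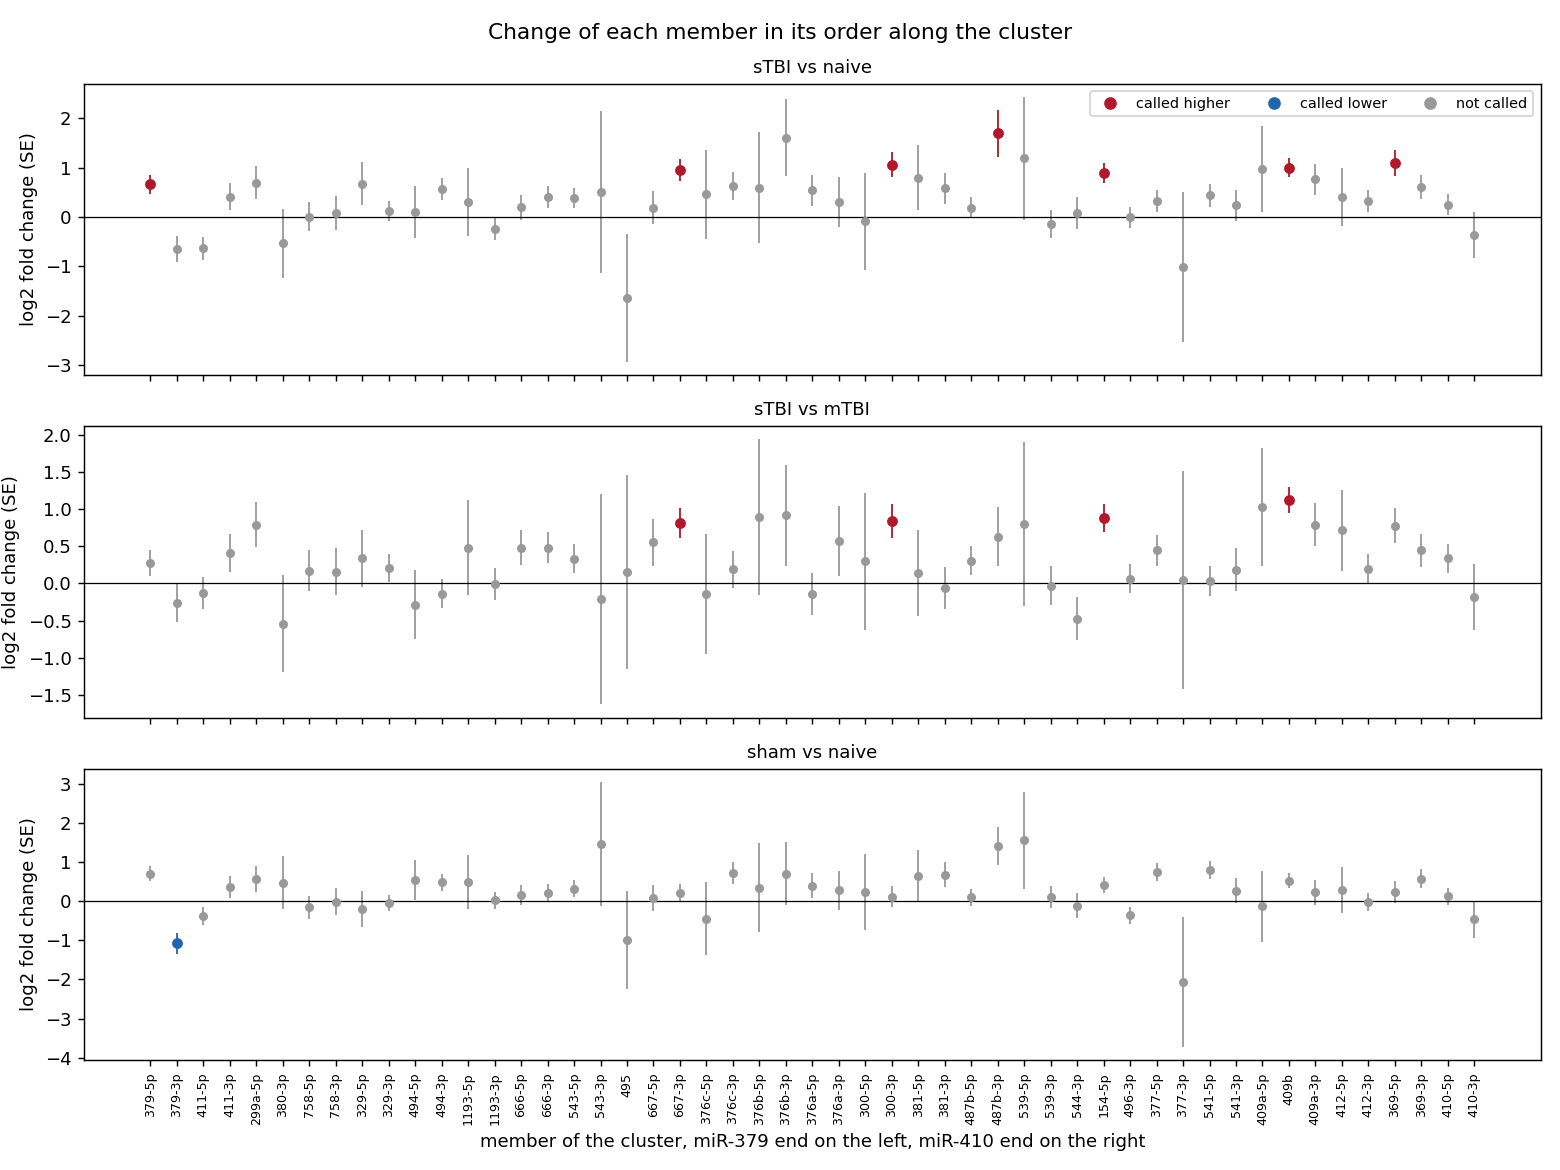
Log2 fold change of each tested member with its SE (edgeR), in order along the cluster, for sTBI and naive rats, sTBI and mTBI, and sham-operated controls and naive rats. miR-679, for which no position was matched, is left out. Colored points passed adjusted p under 0.05, 7 higher in the first, 4 higher in the second and 1 lower in the third panel.

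The rest of the Dlk1-Dio3 miRNAs, 33 arms upstream of miR-379 or interspersed with the members, were counted in the same fits. Between sTBI and naive rats 7 of 52 members were called higher, with a median log2 fold change of 0.403, against 12 of these 33 arms, with a median of 0.651 and 0 lower. Between sTBI and mTBI 4 of 52 members were called higher, with a median of 0.286, against 8 of 33 arms, with a median of 0.379 and 0 lower. Between sham-operated controls and naive rats 0 members were called higher and their median was 0.237, while 6 of 33 arms were called higher, with a median of 0.409. Between sTBI and sham 5 of 33 arms were called higher and 1 lower. Between mTBI and naive rats 5 of 33 were called higher, and between mTBI and sham 0. The split into members and these arms was made with earlier results of these data known. These arms hold rises larger than any member's, such as 3.48 for miR-323-3p and 2.94 for miR-434-3p between sTBI and naive rats. So the lower share called among the members may come from the split, and the difference between the members and these arms was not tested.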

How the data were processed

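Reads were trimmed, assigned to UMIs and mapped by the authors in the GeneGlobe portal (cutadapt and Bowtie per the labels, versions not given in the sources used here) against Rnor_6.0 and miRBase, with a last mapping of up to 2 mismatches. The deposited files hold counts of reads and UMIs per feature, with no normalization. UMI counts of 748 miRNAs were used here, and spike-in UMI counts for 1 alternative. Groups followed the labels, and p-values rest on the spread between libraries, 1 per rat, which takes in their preparation as well as the rats.

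edgeR 4.0.16 in R 4.3.3 gave the tests: filterByExpr (minimum count 10), TMM factors, 1 robust quasi-likelihood fit of 19 libraries (15 residual degrees of freedom), 6 contrasts and Benjamini-Hochberg adjustment over 713 miRNAs, with calls at adjusted p under 0.05. The procedure was tested on simulated data. Over the 6 comparisons it called 6.12 to 16% of 1.5-fold rises, 46 to 68% of 2-fold rises and 59.2 to 83.3% of falls to 0.5 of the level. So a member that was not called is not shown to be unchanged. The simulation held more changed miRNAs than the data had calls, and no lowest count of 10. These rates therefore need not hold for the members. Alternatives were read counts, RLE factors, total counts, spike-in totals, no filter, fits of 2 groups, DESeq2 1.42.0, the replicate number as a block and each library left out. Leaving out the 4 libraries of highest miRNA to spike-in ratio and setting counts under 10 to 0 were chosen after seeing the data. The members and the marker and neighbour lists were chosen with earlier results of these data known. Named members are those called in any comparison, the 5 of highest mean CPM and the other arms of called members. Sequences and positions are from RefSeq (GRCr8). tRNA and other RNA tables were not used here.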

Additional observations from a re-analysis of the deposited data

Results flagged for a closer look

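Of 60 sets of 1 named member in 1 group, 3 had a library far from the others by Dixon's criterion, and chance sets apart about 1 in 20. miR-379-5p was at 41.4 CPM in sham library 1, where the other sham libraries were at 22.0 to 26.8 CPM. miR-487b-3p was at 3.72 CPM in sham library 3, below the 5.14 to 5.62 CPM of the others. It was at 0 in naive library 2, where the other naive libraries were at 2.39 to 2.51 CPM, from 7 to 10 UMIs. Naive library 2 is among the 7 libraries with no miRNA at a count of 1 to 9, and the part of this lowest count in the 0 was not tested.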

How the results depend on the processing

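Over 252 values, each of 1 named call in 1 alternative setting, none changed direction and 86 lost significance. Many of these values come from the same fits. Over 10 settings other than leaving out single libraries, miR-409b was called in 9 for sTBI and naive rats and in 10 for sTBI and mTBI, and the other calls in 3 to 8. The number of members called stayed within 1.5 times in 81 of 117 pairs of a comparison and an alternative setting. These 81 take in pairs with 0 called both times, most of those of mTBI to naive rats or sham. They also take in equal counts with another member, as for sTBI and sham with read counts (miR-667-3p). For sham and naive rats without sham library 5 the direction differed as well. For sTBI and naive rats (7 called) it was 1 with spike-in totals and 0 without the 4 libraries of highest miRNA to spike-in ratio, and leaving out single libraries gave 2 to 7, with 2 without naive library 1 or 3 and 4 without sTBI library 2 or 4. For sham and naive rats (1, lower) it was 2 with total counts, both higher, 0 with spike-in totals, 0 in the fit of 2 groups, 4 with DESeq2 (3 higher, 1 lower), 0 without the 4 libraries and 3 with counts under 10 set to 0 (2 higher, 1 lower), and 0 to 2 with single libraries left out. It was 0 without sham library 2, 3 or 4 or naive library 3, and 2 (1 higher, 1 lower) without naive library 2 or 4, and without sham library 5 the 1 called was higher. For sTBI and sham (1) it was 0 with spike-in totals, 3 with DESeq2, 2 without the 4 libraries and 0 to 2 with single libraries left out. For sTBI and mTBI (4) it was 1 with spike-in totals, 1 without the 4 libraries and 2 to 4 with single libraries left out. For mTBI and naive rats (0) it was 1 with DESeq2 (18 of 646 over all miRNAs), and for mTBI and sham (0) it was 1 with DESeq2 (4 of 748) and 1 in the fit of 2 groups (2 of 682). Calls over all miRNAs for sTBI and naive rats were 35 of 713 in the main fit, 15 of 711 with spike-in totals and 11 of 730 without the 4 libraries. In the same order they were 17 of 713, 11 of 711 and 0 of 730 for sham and naive rats. They were 15 of 713, 14 of 711 and 18 of 730 for sTBI and sham, and 23 of 713, 14 of 711 and 10 of 730 for sTBI and mTBI. The cause was not tested. The median log2 fold change of all miRNAs moved to 0.362 with total counts and -0.196 with spike-in totals for sTBI and naive rats, and to 0.324 and -0.269 for sTBI and mTBI. With the replicate number as a block the counts were 5, 0, 0, 1, 0 and 3 for sTBI, mTBI and sham to naive, sTBI and mTBI to sham, and sTBI to mTBI. Over all 713 miRNAs they were 22, 15, 11, 13, 1 and 19 in the same order. Same-numbered libraries had correlations of -0.437 to 0.349 over 27 pairs, 9 of them above 0.1. Of the 5 pairs of sTBI and sham libraries 4 were above 0.1. The labels do not say what the numbers stand for, and with so few libraries these values cannot decide whether they pair the rats. Members of low counts are limited by the lowest count of 10 in 7 libraries.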
